A study of Mus musculus with 32 samples.

Results

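The antioxidant and glutathione enzymes are the genes that remove superoxide, hydrogen peroxide and lipid peroxides, make and use glutathione, and keep protein thiols reduced. With earlier results of these data known, they were chosen by gene symbol alone (glutathione S-transferases, glutathione peroxidases, peroxiredoxins, names that begin with Txn, the superoxide dismutases Sod1 to Sod3, haem oxygenases, Gclc, Gclm, Cat, Gsr, Nqo1, Keap1 and Nfe2l2), so the rule itself used no measured value. This gave 51 of 17053 genes, read by 69 of 20794 probes: 16 glutathione S-transferases, 15 thioredoxin genes, 7 glutathione peroxidases, 3 peroxiredoxins, 3 superoxide dismutases, 2 haem oxygenases, Gclc and Gclm, Nfe2l2 and Keap1, and Cat. Gsr and Nqo1 were not analysed here. Brain, kidney, muscle and pancreas came from 4 male Nox4 knockout mice (Nox4 -/-, C57BL/6, 17 weeks old), and each tissue RNA was hybridised to cDNA arrays against RNA pooled from male wild-type C57BL/6 mice of the same age. The design text and the animal list give 4 mice in that pool, and the labelling protocol gives 6. The labels do not name the tissue of the pool, so that each organ was set against the same organ of wild-type mice is assumed here. Every animal gave all 4 tissues, and each tissue RNA ran on 2 arrays with the dyes swapped, which makes 8 arrays per tissue and 32 in all. The knockout is described only as a Nox4 mutation, with no construct, Cre or cell type named, and the whole organs hold many cell types. In such samples, fewer cells of a type and less RNA per cell cannot be told apart.

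Each value is a log2 ratio that the authors deposited, here read as knockout animal over pool, so 0 means equal signal and 1 a doubling. No source used here states this direction and it was not tested, and base 2 was inferred because none is stated. The 2 arrays of an animal were averaged, and means are given ± SE (limma) over 4 animals unless another number is stated. The pool carries no spread of its own, so the tests do not hold the variation among wild-type mice. The ratios give no transcript level, so a tissue's identity could be examined only as equal marker content in animal and pool, not as marker abundance.

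NOX4 is an NADPH oxidase that releases mainly hydrogen peroxide and is known for high expression in kidney. Peroxide is removed by catalase, by the glutathione peroxidases, which spend glutathione, and by the peroxiredoxins, which are recycled by thioredoxin and thioredoxin reductase. Many of these genes are induced by the transcription factor NRF2 (Nfe2l2), which KEAP1 holds in the cytoplasm and marks for degradation until its cysteines are oxidised; NRF2 binds antioxidant response elements in its targets' promoters. The knockout was compared with the wild-type pool in each tissue, and the tissues with each other.

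The core letters of that element, TGACNNNGC, were searched for on both strands in RefSeq promoters (GRCm38.p6, 250 bases before to 50 after each start). Of the 51 genes, 44 matched a promoter by symbol, and 10 of their 59 promoters (16.9%) held the letters, against 4071 of 32851 promoters (12.4%) of all genes. Gclc, Gsta4, Gstt2, Hmox1, Sod3, Txnl1 and Txnl4a had no entry. The 10 genes were Gclm, Gsta3, Gstm5, Nfe2l2, Prdx1, Sod1, Txndc11, Txndc2, Txndc5 and Txnrd1. The matches of 5 of them are shown because these genes stand for the arms of the system described next, glutathione synthesis, conjugation, peroxide removal, thioredoxin reduction and NRF2 itself. Each is read 5′ to 3′ on the strand of its gene with the match in capitals; a match on the opposite strand appears as GCNNNGTCA.
Gclm: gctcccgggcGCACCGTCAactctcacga
Gsta3: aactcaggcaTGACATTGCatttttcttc
Prdx1: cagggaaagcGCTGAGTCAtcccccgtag
Txnrd1: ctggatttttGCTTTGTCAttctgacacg
Nfe2l2: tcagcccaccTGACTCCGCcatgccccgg
These windows lie upstream of a start at chr3:122245413-122245441 (+ strand) for Gclm, chr1:21240454-21240482 (+ strand) for Gsta3, chr4:116685456-116685484 (+ strand) for Prdx1, chr10:82859104-82859132 (+ strand) for Txnrd1 and chr2:75704885-75704913 (- strand) for Nfe2l2. A match is only these letters in this window, not a bound site. The median mean log2 ratio of the genes with and without a match was -0.027 (10 genes) and 0.00075 (34 genes) in brain, 0.024 and -0.0082 in kidney (10 and 34 genes), 0.050 and -0.036 in muscle (9 and 34 genes) and 0.098 and 0.029 in pancreas (9 and 33 genes). These medians are a description with no test, and the members with a match are described with their families.

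Across the arrays, 19815 to 20684 probes carried a value, and array medians ran from -0.070 to 0.050. The 2 arrays of an animal did not resemble each other: over all probes their ratios correlated at r = -0.37 to 0.040. Values beyond 8 in size, which sit apart at 15.45 and more, made up 1844 of 655162 values (0.281%) and 3 of the members' 2187. The targeted gene Nox4 was not analysed here, so the knockout labels were not checked against it. The marker lists of each tissue's own cells had median ratios near 0, among them 0.058 for neurons in brain, -0.054 for proximal tubule in kidney, -0.066 for skeletal muscle in muscle and -0.028 for acinar cells in pancreas. Of the skeletal muscle markers in muscle, 1 of 9 was above 0 (list means over animals -0.10 to -0.026). Of the proximal tubule markers in kidney, 1 of 3 was (list means over animals -0.18 to -0.012). Among markers of other cells, all 4 macrophage markers were below 0 in muscle (median -0.12, lowest Ctss at -0.53, list means over animals -0.24 to -0.18). All 3 neuron markers (median -0.10) and all 3 astrocyte markers (median -0.087) were below 0 there too. Their list means over animals were -0.27 to 0.11 and -0.25 to 0.079. Of all genes tested in muscle, 9737 of 16662 were below 0. The 4 endothelial markers in muscle were split, with 2 above 0, from Pecam1 at -0.17 to Tek at 0.595. Their median was 0.21 (list means over animals 0.099 to 0.33). The part of the macrophage and endothelial lists in the muscle values below was not tested.

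No antioxidant or glutathione gene passed the test against the wild-type pool in any tissue in the deposited signs. At an adjusted p of 0.05 (limma, Benjamini-Hochberg over all genes tested) 0 of 51 members were called in kidney, 0 of 51 in brain, 0 of 50 in muscle and 0 of 49 in pancreas, and the share called among all genes was 0% in each tissue. The smallest adjusted p of a member was 0.511 in kidney, 0.577 in muscle, 0.773 in brain and 0.991 in pancreas. At an unadjusted p under 0.05, kidney had 9 members of 51 (17.6%) against 9.28% of 16825 genes, 4 above and 5 below 0. Brain had 1 of 51 against 4.13%, muscle 2 of 50 (4%) against 7.29% and pancreas 1 of 49 against 2.91%. The kidney count depended on the animals kept, at 3 to 10 members without each animal in turn. It was 3 without animal 3 (5.23% of all genes) and 5 without animal 4 (5.8%). With all animals and 1 spread shared over the tissues it was 3 (2.28%).

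The members sat around 0 as a group. Their median was 0.011 in kidney, -0.0031 in brain, 0.042 in pancreas and -0.031 in muscle, against 0.0026, 0.0074, 0.00075 and -0.024 over all genes. Members above 0 numbered 25 of 51 in brain, 27 of 51 in kidney, 19 of 50 in muscle (38%, against 41.6% of all genes) and 32 of 49 in pancreas (65.3%, against 50.4%). With the probe that has most values in place of the mean over probes, the pancreas median was 0.0011. All 4 animals were above 0 for 10 kidney members and below 0 for 6, where 10.1% and 9.85% of all genes did the same. The other tissues had 4 above and 5 below in brain (8.86% and 6.73% of all genes), 2 and 8 in muscle (6.85% and 12%) and 4 and 3 in pancreas (5.42% and 5.15%). The heat map of the 51 members shows these values animal by animal.

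**Figure D1:**
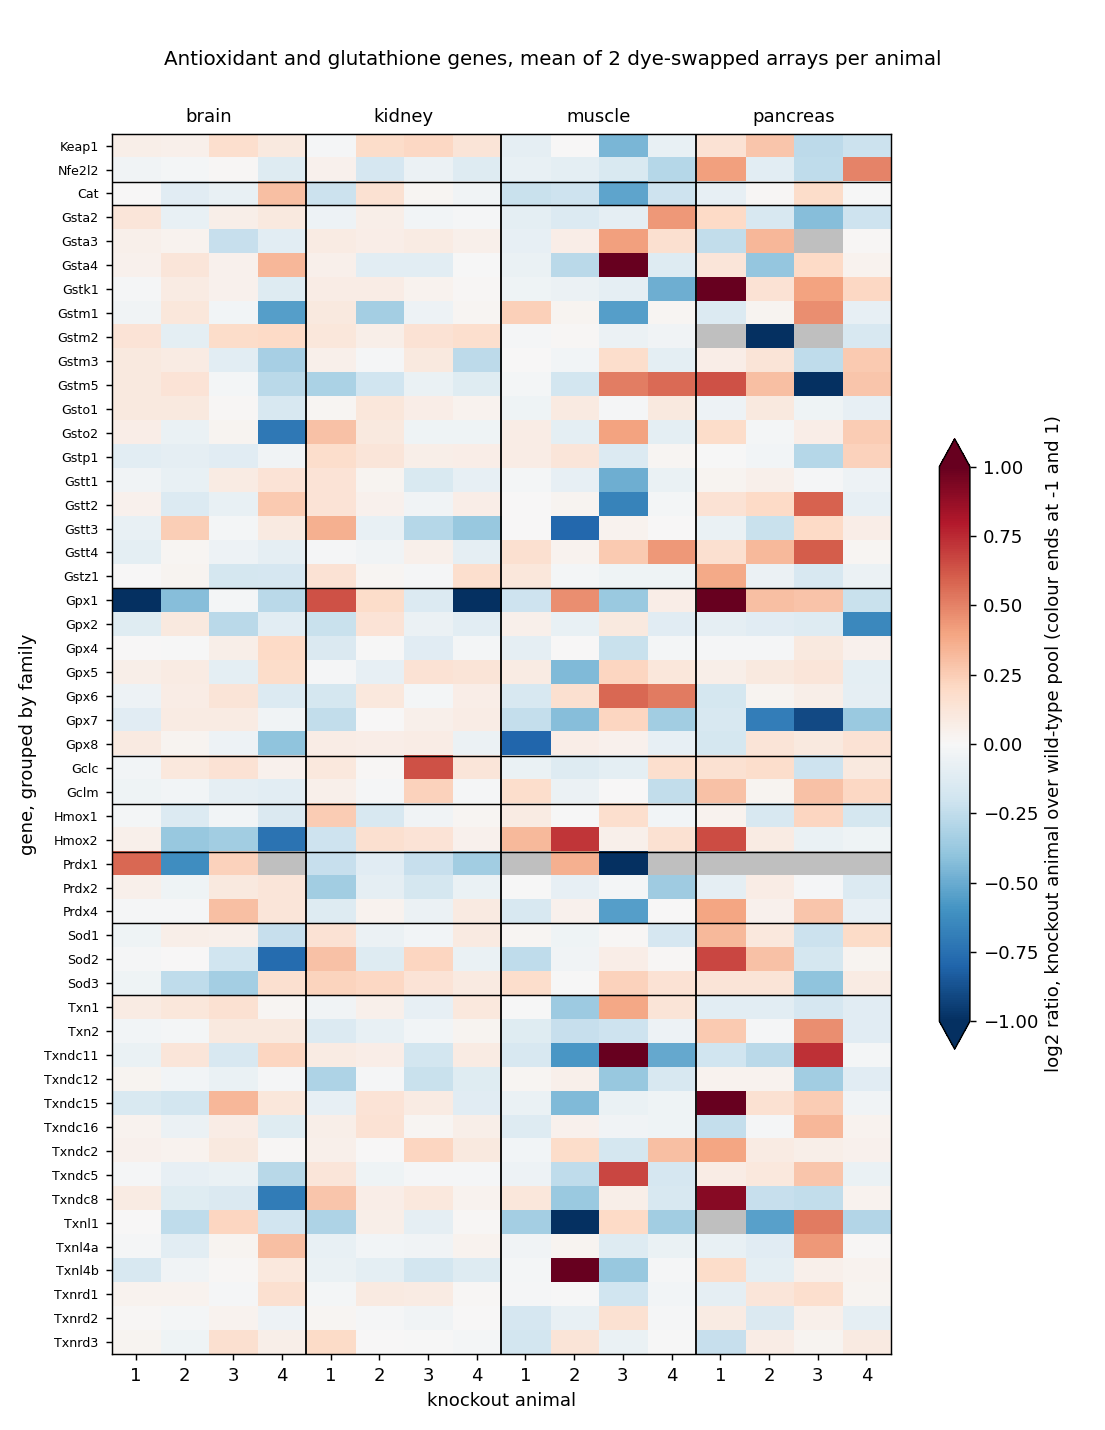
Heat map of the log2 ratio of each of the 51 members (rows, grouped by family) in each of 4 knockout animals in brain, kidney, muscle and pancreas (columns), each cell the mean of 2 dye-swapped arrays. Colours end at -1 and 1 and grey means not measured on both arrays; brain and kidney are mostly pale, and the strong colours of muscle and pancreas mostly stand in single animals.

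The precision of the means in the deposited signs differed between tissues. The half-width of a member's 95% interval had a median of 0.12 in kidney, 0.15 in brain, 0.24 in muscle and 0.28 in pancreas. In kidney the interval of all 51 members lay within a 2-fold change and that of 50 lay within 1.5-fold. In brain 50 of 51 lay within 2-fold, the exception being Gpx1. In muscle 48 of 50 did, the exceptions being Txndc11 and Txnl1, and in pancreas 47 of 49, the exceptions being Gstk1 and Txndc15. Within 1.5-fold lay 47 in brain, 41 in muscle and 41 in pancreas. The intervals do not cover the spread of the pool, and they hold only for the deposited signs. With the sign of the knockout-in-Cy3 arrays turned, means beyond 2-fold included Txnl1 (1.23) and Gstm5 (1.01) in pancreas and Txnl4b (-1.01) in muscle. The intervals are therefore no bound on the knockout change under that reading.

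Nfe2l2, which encodes NRF2, averaged -0.077 ± 0.048 in kidney, -0.043 ± 0.047 in brain, 0.14 ± 0.16 in pancreas and -0.15 ± 0.066 in muscle. In muscle its 4 animals were at -0.072, -0.10, -0.15 and -0.29, all below 0, with an adjusted p of 0.661 (limma). Keap1, its inhibitor, averaged 0.13 ± 0.049 in kidney, 0.094 ± 0.045 in brain, -0.015 ± 0.12 in pancreas and -0.15 ± 0.095 in muscle. In kidney the animals were at -0.013, 0.18, 0.21 and 0.13, so 3 of 4 were above 0, and its unadjusted p was 0.0422 and its adjusted p 0.527 (limma). In brain all 4 were above 0, at 0.06, 0.054, 0.17 and 0.094. For both genes the 2 dye orientations stood on opposite sides of 0 in every tissue.

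Glutathione synthesis is limited by glutamate-cysteine ligase, of which Gclc is the catalytic and Gclm the modifier subunit. Gclc averaged 0.22 ± 0.11 in kidney, 0.065 ± 0.049 in brain, 0.055 ± 0.10 in pancreas and -0.031 ± 0.074 in muscle; in kidney the animals were at 0.11, 0.013, 0.64 and 0.12, with animal 3 far above the others, and its 2 probes there averaged 0.37 and 0.071. Gclm averaged 0.065 ± 0.053 in kidney, -0.065 ± 0.043 in brain, 0.20 ± 0.083 in pancreas and -0.031 ± 0.086 in muscle. All 4 brain animals were below 0 for Gclm, at -0.043, -0.024, -0.091 and -0.10, and all 4 pancreas animals above 0, at 0.29, 0.024, 0.29 and 0.21. In pancreas that mean joined -0.31 on the Cy5-labelled knockout arrays and 0.72 on the Cy3-labelled ones. The adjusted p against the pool was 0.773 in brain and 0.991 in pancreas (limma).

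Of the 7 glutathione peroxidases, 2 were above 0 in kidney, 4 in brain, 4 in pancreas and 1 in muscle, and their medians were -0.032, 0.0046, 0.029 and -0.013. Gpx7, a peroxidase of the endoplasmic reticulum, had the lowest pancreas mean: its animals were at -0.16, -0.69, -0.90 and -0.37, all below 0, and averaged -0.53 ± 0.14 (95% interval -0.90 to -0.16), with an adjusted p of 0.991 (limma). The 2 orientations stood on opposite sides of 0 there, 0.41 on the Cy5-labelled knockout arrays and -1.47 on the Cy3-labelled ones. In the other tissues Gpx7 averaged 0.0046 ± 0.054 in brain, -0.032 ± 0.063 in kidney and -0.20 ± 0.12 in muscle. Gpx1, the abundant cytosolic enzyme, was the lowest member in brain, with animals at -1.27, -0.42, -0.021 and -0.27 and a mean of -0.50 ± 0.21 (adjusted p 0.773, limma). Animal 1 carried much of that mean. Gpx1 also had the widest spread of the family in kidney, where animals ran from -1.22 to 0.64. Gpx4, which reduces lipid peroxides in membranes, kept to a narrow range, averaging -0.071 ± 0.042 in kidney, 0.062 ± 0.054 in brain, 0.029 ± 0.07 in pancreas and -0.081 ± 0.067 in muscle. The highest member was Gpx4 in brain, Gpx5, known from the epididymis, in kidney at 0.044 ± 0.053, Gpx6 in muscle at 0.28 ± 0.14 and Gpx1 in pancreas at 0.34 ± 0.21. The lowest was Gpx1 in kidney at -0.13 ± 0.28, and Gpx7 in muscle. Gpx2, an enzyme of the gut lining, was below 0 in all 4 pancreas animals, at -0.091, -0.12, -0.13 and -0.64. Gpx8 averaged 0.04 ± 0.042 in kidney, -0.085 ± 0.093 in brain, 0.047 ± 0.09 in pancreas and -0.19 ± 0.16 in muscle.

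The 16 glutathione S-transferases, which couple glutathione to electrophiles, stood on both sides of 0: 7 were above 0 in brain, 8 in kidney and 10 in muscle, and 10 of 15 in pancreas. Their medians were -0.0083, 0.020, 0.016 and 0.027. In kidney 3 members passed an unadjusted p of 0.05 with 4 animals on 1 side, and all 3 missed the adjusted threshold. Gstm2, of the mu class, had kidney animals at 0.11, 0.061, 0.14 and 0.17, all above 0 and narrowly spaced, and averaged 0.12 ± 0.038 (adjusted p 0.513, limma). It was above 0 on 8 of 8 kidney arrays; 1 of 51 members was on 1 side of 0 on every kidney array, as were 1.44% of all genes. Gstp1, the pi-class enzyme, had kidney animals at 0.17, 0.12, 0.062 and 0.069 and averaged 0.11 ± 0.039 (adjusted p 0.525, limma), whereas its brain animals were all below 0, at -0.11, -0.09, -0.11 and -0.035, averaging -0.085 ± 0.042. Gstm5 had kidney animals at -0.32, -0.20, -0.068 and -0.12, all below 0, and averaged -0.18 ± 0.052 (adjusted p 0.511, limma). The orientations were at 0.10 on the Cy5-labelled knockout arrays and -0.46 on the Cy3-labelled ones. Its 2 kidney probes differed, with means of -0.014 and -0.34, and the mean follows the second. Mu-class genes are similar in sequence, so which of them these probes read is uncertain.

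Gstt4, of the theta class, was the 1 member of 50 on 1 side of 0 on every muscle array, as were 2.04% of all genes. Its muscle animals were at 0.16, 0.035, 0.27 and 0.43, all above 0, and it was above 0 on 8 of 8 arrays, with a mean of 0.22 ± 0.083 (95% interval 0.012 to 0.44; adjusted p 0.661, limma). Its pancreas animals were at 0.16, 0.32, 0.61 and 0.022 and averaged 0.28 ± 0.12, but the orientations were at 0.75 on the Cy5-labelled knockout arrays and -0.20 on the Cy3-labelled ones. Gstk1, the mitochondrial and peroxisomal kappa enzyme, had the highest pancreas mean of the family, 0.55 ± 0.24, from animals at 1.45, 0.15, 0.40 and 0.21. Animal 1 stood far above the others. In muscle Gstk1 was below 0 in all 4 animals, at -0.044, -0.057, -0.091 and -0.48, with animal 4 far below the rest. The family's lowest means were Gsto2 in brain at -0.17 ± 0.15, Gstm5 in kidney, Gstt3 in muscle at -0.18 ± 0.16 and Gsta2 in pancreas at -0.15 ± 0.12. Its highest were Gsta4 in brain at 0.13 ± 0.065, an enzyme for the lipid aldehyde 4-hydroxynonenal, with 4 of 4 animals above 0, Gstm2 in kidney and Gstt4 in muscle. Gstm2 was not tested in pancreas, where 2 animals had both arrays and 1 of them held a value of -16.5. The other members, Gsta3, Gstm1, Gstm3, Gsto1, Gstt1, Gstt2 and Gstz1, had means between -0.16 and 0.21 in the 4 tissues.

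**Figure D2:**
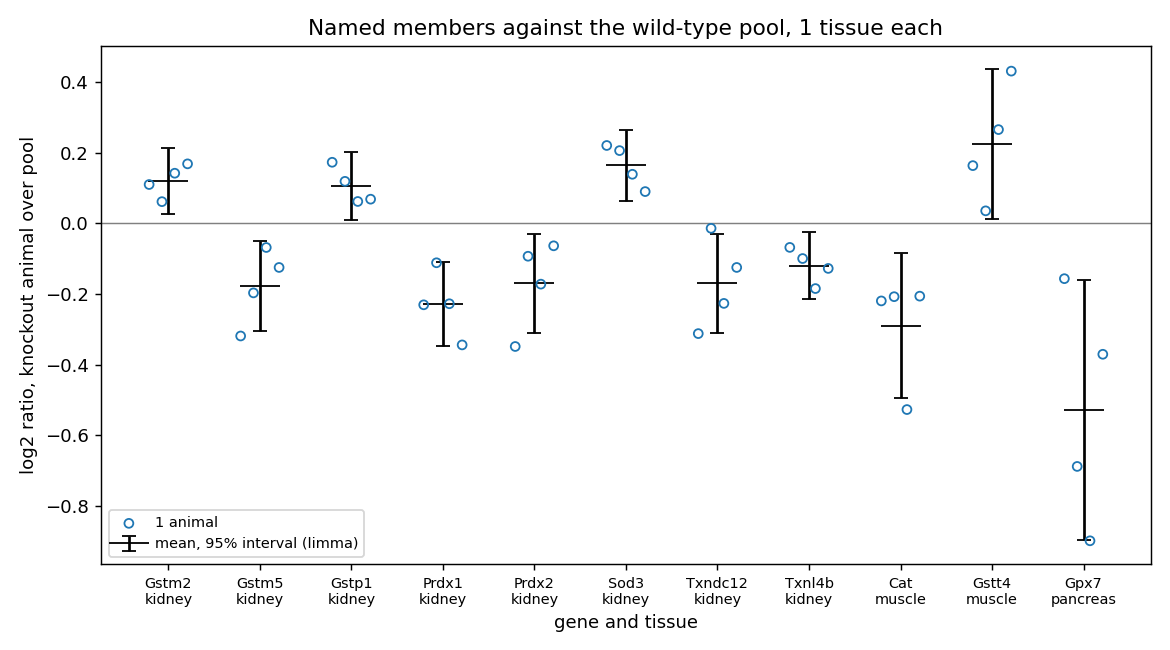
Log2 ratio (vertical axis) of the 11 gene and tissue pairs with 4 animals on 1 side of 0 and an unadjusted p under 0.05; circles are animals, each the mean of 2 dye-swapped arrays, and bars are the mean with its 95% interval from limma. The kidney animals lie between -0.35 and 0.22, and Gpx7 in pancreas has the largest mean, -0.53.

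The superoxide dismutases turn superoxide into peroxide: Sod1 in the cytosol, Sod2 in mitochondria and Sod3 outside the cell. Sod3 had kidney animals at 0.22, 0.21, 0.14 and 0.09, all above 0, and averaged 0.16 ± 0.041 (95% interval 0.064 to 0.26; adjusted p 0.511, limma), with orientation means of 0.14 on the Cy5-labelled knockout arrays and 0.19 on the Cy3-labelled ones. In the other tissues Sod3 averaged -0.12 ± 0.095 in brain, 0.13 ± 0.066 in muscle and -0.017 ± 0.12 in pancreas. Sod1 averaged 0.036 ± 0.048 in kidney, -0.04 ± 0.065 in brain, 0.10 ± 0.11 in pancreas and -0.044 ± 0.064 in muscle. Sod2 averaged 0.076 ± 0.081 in kidney, -0.24 ± 0.14 in brain, 0.20 ± 0.16 in pancreas and -0.052 ± 0.076 in muscle; its brain animals were at -0.012, 0.0045, -0.20 and -0.77, so animal 4 carried the brain mean. The 2 pancreas probes of Sod2 averaged -0.038 and 0.58, and its 2 muscle probes 0.14 and -0.25. For Sod1 the 2 pancreas probes averaged -0.20 and 0.40. In the deposited signs all 3 dismutases were below 0 in brain and above 0 in kidney, and 0 were called; with the sign of the knockout-in-Cy3 arrays turned, a reading taken up with the orientations below, all 3 were below 0 in both tissues. Sod1, Sod2 and Sod3 were then at -0.060, -0.20 and -0.0018 in brain and at -0.041, -0.0080 and -0.028 in kidney.

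Catalase, the peroxisomal enzyme that splits hydrogen peroxide, was below 0 in all 4 muscle animals, at -0.22, -0.21, -0.53 and -0.21. Animals 1, 2 and 4 lay close together and animal 3 was lower. The muscle mean was -0.29 ± 0.081 (95% interval -0.50 to -0.085), a ratio of 0.818, with an adjusted p of 0.577 (limma). The orientations were at 0.15 on the Cy5-labelled knockout arrays and -0.73 on the Cy3-labelled ones, so the sign came from the second. In brain, kidney and pancreas Cat averaged 0.03 ± 0.082, -0.021 ± 0.064 and 0.027 ± 0.08, with 2 animals on each side of 0 in each of them.

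The peroxiredoxins remove peroxide through a cysteine that thioredoxin restores. Prdx1, the cytosolic form, had the smallest unadjusted p of any member in any tissue in the deposited signs: its kidney animals were at -0.23, -0.11, -0.23 and -0.34, all below 0, and averaged -0.23 ± 0.048 (95% interval -0.35 to -0.11), a ratio of 0.854, with an adjusted p of 0.511 (limma). It was below 0 on 7 of 8 kidney arrays, and the orientations were on the same side, -0.38 on the Cy5-labelled knockout arrays and -0.076 on the Cy3-labelled ones. With the Cy3 arrays turned its mean was -0.15, with an unadjusted p of 0.124 (limma), and the smallest p of a member was then that of Gstt1 in muscle. Prdx2, a second cytosolic form, was also below 0 in every kidney animal, at -0.35, -0.093, -0.17 and -0.064, averaging -0.17 ± 0.057 (adjusted p 0.522, limma). For Prdx2 the orientations were at 0.021 on the Cy5-labelled knockout arrays and -0.36 on the Cy3-labelled ones. Prdx4, the form of the endoplasmic reticulum, averaged -0.017 ± 0.049 in kidney, with animals at -0.13, 0.035, -0.062 and 0.089 on both sides of 0. Outside kidney, Prdx2 averaged 0.057 ± 0.049 in brain, -0.12 ± 0.083 in muscle and -0.042 ± 0.076 in pancreas, and Prdx4 0.10 ± 0.068, -0.17 ± 0.12 and 0.16 ± 0.11. Prdx1 in brain was measured in 3 animals, at 0.58, -0.62 and 0.23, and averaged 0.062 ± 0.25. It was not tested in muscle, where 2 animals had both arrays and 1 array held -15.6, or in pancreas, where no animal had both.

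Of the 15 thioredoxin genes, 9 were above 0 in kidney, 8 in brain, 10 in pancreas and 5 in muscle, and their medians were 0.011, 0.027, 0.054 and -0.041. Txn1, cytosolic thioredoxin, averaged 0.011 ± 0.046 in kidney, 0.093 ± 0.045 in brain, -0.12 ± 0.069 in pancreas and 0.036 ± 0.13 in muscle. All 4 brain animals were above 0, at 0.085, 0.11, 0.15 and 0.023, and all 4 pancreas animals below 0, at -0.11, -0.10, -0.17 and -0.11. Txn2, mitochondrial thioredoxin, was below 0 in all 4 muscle animals, at -0.12, -0.23, -0.21 and -0.054, averaging -0.15 ± 0.062 (adjusted p 0.661, limma), with orientations at 0.27 on the Cy5-labelled knockout arrays and -0.57 on the Cy3-labelled ones. The reductases that recharge thioredoxin had small means in the deposited signs. Txnrd1, cytosolic, averaged 0.041 ± 0.039 in kidney, 0.054 ± 0.049 in brain, 0.054 ± 0.08 in pancreas and -0.06 ± 0.065 in muscle, and Txnrd2, mitochondrial, -0.0082 ± 0.036 in kidney, -0.006 ± 0.043 in brain, -0.026 ± 0.079 in pancreas and -0.024 ± 0.075 in muscle. Txnrd2 had the smallest range of tissue means of all 49 members measured in every tissue, 0.020, where the median range was 0.23. Its means join 3 probes that differed in sign in each tissue, in muscle -0.087, -0.11 and 0.13. The 2 pancreas probes of Txnrd1 averaged -0.125 and 0.23. With the Cy3 arrays turned, the range of tissue means of Txnrd2 was 0.12, and the smallest was that of Gpx4 at 0.061. The range of Txnrd1 was then 0.38, where the median was 0.30.

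Kidney held the 2 thioredoxin-family members with an unadjusted p under 0.05 against the pool. Txndc12, a thioredoxin-domain protein of the endoplasmic reticulum, had kidney animals at -0.31, -0.014, -0.23 and -0.12, all below 0, and averaged -0.17 ± 0.057 (adjusted p 0.522, limma), with nearly equal orientations, -0.18 on the Cy5-labelled knockout arrays and -0.16 on the Cy3-labelled ones. Txnl4b, a relative of a spliceosome protein and not an antioxidant enzyme, had kidney animals at -0.068, -0.10, -0.18 and -0.13 and averaged -0.12 ± 0.039 (adjusted p 0.517, limma). Txndc8 and Txndc2, thioredoxins known from testis, and Txndc16 were each above 0 in 4 of 4 kidney animals and on 7 of 8 arrays, at 0.12 ± 0.051, 0.094 ± 0.047 and 0.069 ± 0.04. The extreme muscle and pancreas means of the family rested largely on single animals. Txnl1 averaged -0.59 ± 0.34 in muscle with animal 2 at -1.88, and Txndc11 0.19 ± 0.47 with animal 3 at 2.01. Txndc15 averaged 2.03 ± 1.47 in pancreas, where animal 1 held a value of 16.02 on 1 array and the other 3 animals lay between -0.029 and 0.26. The lowest brain mean of the family was Txndc8 at -0.22 ± 0.13, and Txn1 had the highest brain and the lowest pancreas mean. Txndc5, a disulfide isomerase relative, Txnl4a, of the spliceosome, and the testis reductase Txnrd3 had means between -0.11 and 0.10 in the 4 tissues.

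Haem oxygenases break down haem to biliverdin. Hmox1, the inducible form and a classic NRF2 target, averaged 0.018 ± 0.071 in kidney, -0.084 ± 0.047 in brain, -0.024 ± 0.10 in pancreas and 0.054 ± 0.064 in muscle; all 4 brain animals were below 0, at -0.022, -0.14, -0.03 and -0.14. Hmox2, the constitutive form, which is abundant in brain, gave the only brain member with an unadjusted p under 0.05 (0.0395, adjusted p 0.773, limma): its brain animals were at 0.053, -0.38, -0.35 and -0.74, so 3 of 4 were below 0, and averaged -0.35 ± 0.13. Its muscle animals were at 0.33, 0.72, 0.053 and 0.15, all above 0, and averaged 0.31 ± 0.12 (adjusted p 0.661, limma). Kidney and pancreas averaged 0.034 ± 0.069 and 0.16 ± 0.15.

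Between tissues, no member passed the test of a difference in any of the 6 pairs in the deposited signs. This held whether or not the animal was taken as a block (49 members measured in every tissue, limma, adjusted p 0.05 over 16257 genes). Among all genes the share called was 0% for brain against kidney, 0.461% for brain against muscle, 0% for brain against pancreas, 0.0123% for kidney against muscle, 0% for kidney against pancreas and 0.578% for muscle against pancreas. With the animal as a block it was 0% in every pair but muscle against pancreas, at 0.148%. In the same order, 2, 3, 7, 3, 3 and 7 members passed an unadjusted p of 0.05, where 2.92%, 9.23%, 8.29%, 6.23%, 5.67% and 12.8% of all genes did. The animals of the 2 tissues did not overlap for 3, 4, 5, 1, 2 and 3 members, where the shares over all genes were 5.86%, 7.66%, 4.15%, 6.91%, 3.75% and 4.74%. All animals of one tissue lay above 0 and all of the other below for 1, 0, 2, 1, 0 and 1 members, against 1.64%, 1.64%, 0.941%, 1.3%, 0.658% and 0.898% of all genes. Over the 4 tissues together, the F test gave 6 members with an unadjusted p under 0.05 (8.65% of all genes), and 0 called (0.0246% of all genes). Those 6 were Gpx7, Gstt4, Hmox2, Gstk1, Cat and Gclm, and the smallest adjusted p among them was 0.443 (limma).

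Hmox2 and Gstk1 were the members nearest to a difference. Hmox2 differed between brain and muscle by -0.66 ± 0.19 (brain minus muscle, ± SE; adjusted p 0.194, limma), and the brain and muscle animals met at 0.053, brain animal 1 and the lowest muscle animal. Without animal 1 the difference was -0.79 ± 0.17 and passed, with an adjusted p of 0.0463 (limma), in a fit that called 1.46% of all genes; without animals 2, 3 and 4 in turn the adjusted p was 0.718, 0.415 and 0.726. Gstk1 differed between muscle and pancreas by -0.72 ± 0.22 (adjusted p 0.166, limma), with every muscle animal below 0 and every pancreas animal above. Gpx7 differed between brain and pancreas by 0.53 ± 0.16 (adjusted p 0.479, limma), and the animals of the 2 tissues did not overlap. Cat differed between brain and muscle by 0.32 ± 0.11 and between muscle and pancreas by -0.32 ± 0.11, without overlap in either pair (adjusted p 0.332 and 0.23, limma). Gstt4 was -0.33 ± 0.11 in brain minus pancreas and -0.28 ± 0.11 in brain minus muscle, and Gclm -0.27 ± 0.093 in brain minus pancreas. None of these passed with all 4 animals in the deposited signs. With the Cy3 arrays turned, the differences of Hmox2, Gstk1 and Gstt4 kept their direction, and those of Gpx7, Cat and Gclm reversed. Gpx7 was then at 0.13 in brain and 0.94 in pancreas, and it was called in that pair. Cat was at 0.18 in brain, 0.44 in muscle and 0.31 in pancreas.

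**Figure D3:**
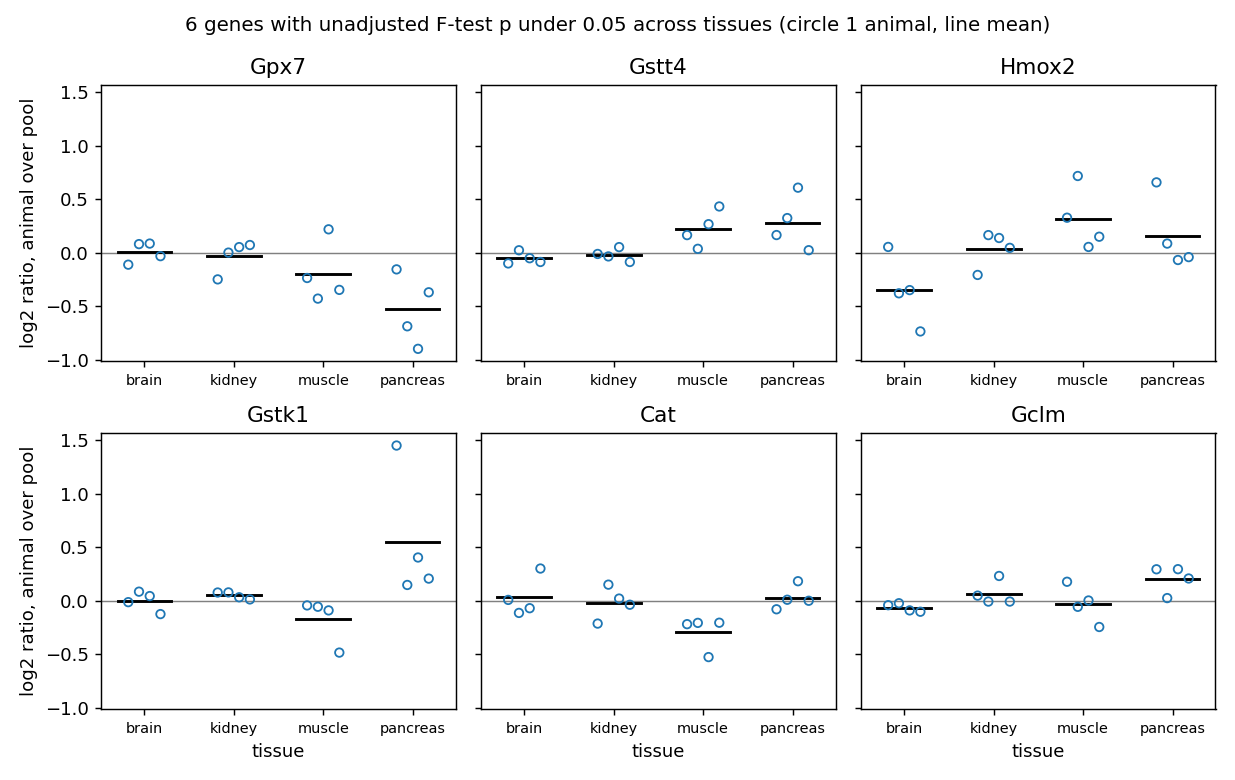
Log2 ratio over the wild-type pool (vertical axis) of the 6 members with an unadjusted F-test p under 0.05, by tissue; circles are animals (mean of 2 dye-swapped arrays) and lines are means. Gpx7 is lowest in pancreas (mean -0.53), Cat in muscle (-0.29) and Hmox2 in brain (-0.35), while the Gstk1 pancreas mean of 0.55 includes 1 animal at 1.45; 0 of the 6 passed the adjusted threshold.

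Across the 4 tissues the sign of the mean was the same for 6 of the 49 members (12.2%, against 11.7% of all genes): Gpx2, Txndc11, Txndc12, Txndc2, Txnl1 and Txnrd2. Pancreas gave the highest of the 4 means for 20 members, brain for 13, muscle for 9 and kidney for 7. Muscle gave the lowest for 20, brain for 16, pancreas for 7 and kidney for 6. These orders hold for the deposited signs. With the Cy3 arrays turned, the means of 32 of 49 members (65.3%, against 53.9% of all genes) had the same sign in the 4 tissues. Pancreas then gave the highest mean for 24 members and the lowest for 17, brain for 10 and 15, kidney for 8 and 10, and muscle for 7 and 7.

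The values of these genes lay further apart between the 2 dye orientations than their means lay from 0, as they did over all genes. The halved difference between the knockout-in-Cy5 and knockout-in-Cy3 means had a median size of 0.12 in kidney, 0.11 in brain, 0.33 in pancreas and 0.19 in muscle, against median sizes of the mean of 0.059, 0.057, 0.063 and 0.086. In the same order, the halved difference over all genes had a median size of 0.089, 0.093, 0.243 and 0.1375. The mean over all genes had median sizes of 0.047, 0.061, 0.081 and 0.0835. Both orientation means were on the same side of 0 for 16 of 51 members in brain, 18 of 51 in kidney, 15 of 50 in muscle and 3 of 49 in pancreas, where 36.9%, 32.1%, 34.4% and 21.9% of all genes were. The half-difference had the same sign in all 4 tissues for 32 of 49 members (65.3%, against 53.9% of 16381 genes), 19 positive and 13 negative. Where no array is missing, the half-difference equals the mean with the Cy3 arrays turned. This count is therefore the one given above for the turned arrays, not a separate observation. Txnl1 had one of the large positive half-differences, 0.32, 0.29, 0.86 and 1.20 in brain, kidney, muscle and pancreas. Nfe2l2 was negative throughout, at -0.28, -0.32, -0.72 and -0.72, and Keap1 was positive throughout, at 0.19, 0.31, 0.19 and 0.38. For Nfe2l2 the muscle means were -0.88 on the Cy5-labelled knockout arrays and 0.57 on the Cy3-labelled ones. In pancreas they were -0.58 on the Cy5-labelled knockout arrays and 0.85 on the Cy3-labelled ones. The 2 regulators opposed each other in orientation in every tissue while their means were not called in any.

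**Figure D4:**
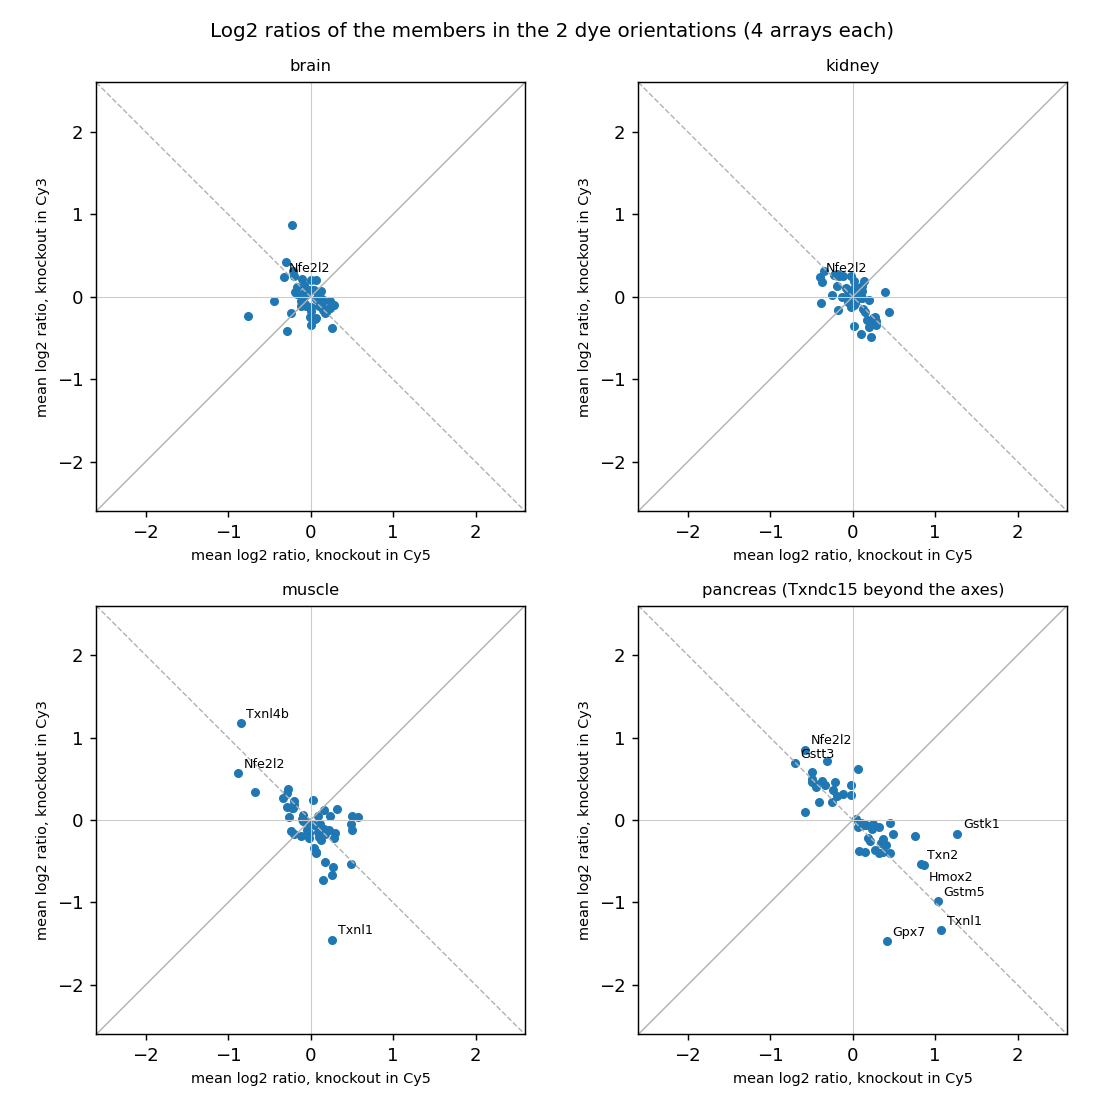
Mean log2 ratio of each tested member on the 4 arrays with the knockout in Cy5 (horizontal axis) and on the 4 with the knockout in Cy3 (vertical axis), 1 panel per tissue; the solid line marks equal values and the dashed line values of equal size and opposite sign. Pancreas members lie along the dashed line, with only 3 of 49 on the same side of 0 in both orientations; Txndc15 in pancreas lies beyond the axes.

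If the deposited values were instead Cy5 over Cy3 on every array, the ratios of the knockout-in-Cy3 arrays would need their sign turned. Read that way, 0 members were called in brain (0.00598% of all genes), 0 in kidney (0%), 2 of 50 in muscle (1.97%) and 10 of 49 in pancreas (14.6%), 4 above and 6 below 0 (limma, adjusted p 0.05). The muscle members were Gstt1 and Nfe2l2, both below 0, and the pancreas members Gpx5, Gpx7, Gstp1, Gstt1, Gstt3, Gstz1, Nfe2l2, Txn2, Txnl1 and Txnrd3. At an unadjusted p under 0.05 there were 9, 14, 19 and 27 members in brain, kidney, muscle and pancreas, where 14.3%, 16.3%, 28.9% and 37.2% of all genes passed. Gpx7 in pancreas then averaged 0.94, the opposite sign to its deposited mean, with an adjusted p of 0.0357 (limma). For Nfe2l2 in muscle the turned mean was -0.72, with an adjusted p of 0.0481 (limma). Between tissues, 6 members were then called for brain against pancreas (9.29% of all genes): Gpx7, Gstp1, Gstz1, Hmox2, Txn2 and Txnrd1. In the other pairs 0 were called, where the share of all genes was 2.18% for kidney against pancreas, 0.0308% for muscle against pancreas, 0.00615% for brain against muscle and 0% in the remaining 2. Which of the readings applies was not tested. Values above use the deposited signs.

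Where several probes read 1 member, they often disagreed. For the 14 members with more than 1 probe, the probe means had the same sign in 24 of 55 comparisons over the tissues, 9 of 14 in brain, 8 of 14 in kidney, 4 of 14 in muscle and 3 of 13 in pancreas. The range between probe means had a median of 0.090 in kidney, 0.072 in brain, 0.30 in pancreas and 0.24 in muscle, with muscle and pancreas again wider than the other tissues. The widest was Sod2 in pancreas, at 0.62. In every tissue that median range was larger than the median size of a member mean. The latter was 0.059 in kidney, 0.057 in brain, 0.063 in pancreas and 0.086 in muscle.

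Other redox and NRF2 target genes, 65 of a list of 90, were described in the same way. Against the pool 0 were called in any tissue (limma, adjusted p 0.05), and 4 of 64 in brain, 8 of 65 in kidney, 2 of 65 in muscle and 2 of 63 in pancreas had an unadjusted p under 0.05. These were 6.25%, 12.3%, 3.08% and 3.17% of the list, where 4.13%, 9.28%, 7.29% and 2.91% of all genes passed. The genes of smallest p above and below 0 included Msrb3 (0.21 ± 0.053), a methionine sulfoxide reductase, and Selenok (-0.18 ± 0.063), a selenoprotein, in brain. In kidney they included the metal-binding Mt1 (-0.14 ± 0.038), the selenium carrier Selenop (-0.41 ± 0.12) and, above 0, Oplah (0.10 ± 0.04), which recycles oxoproline to glutamate. In muscle Msra (0.37 ± 0.13) and in pancreas Xdh (0.43 ± 0.18), xanthine dehydrogenase, stood above 0, and the ferritin light chain Ftl1 in muscle (-0.16 ± 0.064) and Gstcd in pancreas (-0.41 ± 0.12) below. Ephx1, microsomal epoxide hydrolase, was the only one of 62 called between tissues. It was called in muscle against pancreas, where 0.578% of all genes were, and in no other pair. Its muscle animals were at 0.22, 0.19, 0.36 and 0.16 and its pancreas animals at -1.08, -0.34, -1.27 and -0.24, so the tissues did not overlap, and the difference was 0.97 ± 0.18 (adjusted p 0.0362, limma). That call was lost with the animal as a block (0.0722) and without each animal in turn (0.141, 0.231, 0.188 and 0.0848 for animals 1 to 4). Those 4 and the block value are adjusted p-values from limma, and with the Cy3 arrays turned the difference was -0.10.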

How the data were processed

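Per the labels' protocols, total RNA of each organ was reverse transcribed and labelled with Cy3 or Cy5, mixed with pooled wild-type cDNA of the other dye and hybridised to cDNA arrays. The authors deposited log2 ratios, 1 value per probe and array; the base of the logarithm was inferred from the values, and the scanner, background correction and normalization are not given in these sources. Probes were named from the platform annotation, updated through Entrez IDs (12771 of 20794 probes had 1 symbol; the rest entered the fits unnamed). Probes of 1 symbol were averaged, then the 2 arrays of an animal. Genes with at least 3 animals were tested with limma 3.58.1 in R 4.3.3 (lmFit, eBayes, two-sided, Benjamini-Hochberg over all genes tested, threshold 0.05): the mean against 0 within each tissue, and the 6 tissue pairs and the F test in 1 fit of all 16 animal and tissue values. The number of arrays limits the precision; no intensity or depth was used.

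Genes named with every animal's value were those called, or with 4 animals on 1 side of 0 and an unadjusted p under 0.05. Others with animal values (Hmox2, Gpx1, Gclm, Gclc, Gstk1, Gstp1 and Gstt4 outside the rule's tissue, Txn1, Txn2, Keap1, Nfe2l2, Sod2, Hmox1, Gpx2 and Prdx4) were chosen after their values were seen. The members, the lists and the tests were chosen with earlier results of these data known. The labels give the same 4 animals in each tissue, which pairs the tissues; deviations of the same animal between tissues correlated at -0.090 to 0.10. Alternatives changed the treatment of extreme values, centring, scaling, dye signs, probes, missing arrays, animals and moderation. The scripts were tested on simulated data.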

Additional observations from a re-analysis of the deposited data

Results flagged for a closer look

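Among 31 groups of 4 animal values given for named members, 5 held an animal far from the rest. The measure was Dixon's ratio of the gap to the group's whole range, which marks about 1 in 20 groups by chance. Most of the 31 groups were chosen after their values were seen, so that share cannot be set against the 5. Of these 5, only catalase in muscle was named by the rule given above. Catalase in muscle had a ratio of 0.958, with animal 3 at -0.53 below the other 3. Gstk1 in muscle had a ratio of 0.894, with animal 4 at -0.48. Txn1 in pancreas had a ratio of 0.882, with animal 3 at -0.17 in a group whose whole range was narrow. Gpx2 in pancreas had a ratio of 0.934, with animal 4 at -0.64, and Gclc in kidney a ratio of 0.832, with animal 3 at 0.64.

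For 5 pairs of tissues, every animal of one tissue lay on one side of 0 and every animal of the other tissue on the opposite side. The differences were -0.19 for Gstp1 in brain minus kidney, -0.27 for Gclm in brain minus pancreas, 0.22 for Txn1 in brain minus pancreas, 0.22 for Gstk1 in kidney minus muscle and -0.72 for Gstk1 in muscle minus pancreas. Each was tested in the fit of all tissues, and their adjusted p-values were 1, 0.538, 0.644, 0.956 and 0.166 (limma). With the sign of the knockout-in-Cy3 arrays turned, 0 of these 5 had all animals on opposite sides, and the differences were 0.12, 0.41, -0.13, -0.28 and -0.37.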

How the results depend on the processing

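The counts of members called against the pool stayed at 0 in every tissue under all alternatives except the turned Cy3 arrays, which called 2 in muscle and 10 in pancreas. Between tissues, counts other than 0 came for brain against pancreas with those arrays turned (6; 9.29%), from the knockout-in-Cy5 arrays alone (3: Gstt4, Gstz1 and Hmox2; 3.65% of all genes) and from the knockout-in-Cy3 arrays alone (1: Gpx7; 0.109%). For brain against muscle, leaving out each animal in turn gave 0 to 1, the 1 being Hmox2 without animal 1. With the animal as a replicate block, which pairs the tissues, 0 members were called in each of the 6 pairs, as without it.

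Of the 31 means given with all 4 animals, 1 changed sign in recalculations that kept both dye orientations as deposited: 2 of 432 did, both for Prdx4 in kidney, at 0.00085 with arrays centred and scaled and 0.021 without animal 1 (-0.052 to 0.021 without each animal in turn). Of the 93 that did not keep them, 32 changed sign. With the ratios of the knockout-in-Cy3 arrays turned, the sign reversed for Hmox2 0.061 and Gstp1 0.030 in brain, Gstm2 -0.0092, Gstm5 0.28, Gstp1 -0.088, Prdx2 0.19, Prdx4 0.17, Sod3 -0.028 in kidney, Cat 0.44, Gstk1 0.34, Txn2 0.42 in muscle, Gpx7 0.94, Gclm -0.51, Txn1 0.27 in pancreas. On the knockout-in-Cy5 arrays alone, the sign reversed for Gstm5 0.10, Prdx2 0.021 and Prdx4 0.15 in kidney, Cat 0.15, Gstk1 0.18, Txn2 0.27 in muscle, Gpx7 0.41, Gclm -0.31, Txn1 0.15 in pancreas. On the knockout-in-Cy3 arrays alone, the sign reversed for Gclm 0.038, Txn1 -0.051, Keap1 -0.094 in brain, Txnl4b 0.015 and Keap1 -0.18 in kidney, Nfe2l2 0.57 in muscle, Gstk1 -0.17, Gstt4 -0.20 and Gpx2 0.092 in pancreas. The cause was not tested.

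The members' median moved by more than the spread between animals in these cases: with the Cy3 arrays turned to 0.028 in brain, 0.073 in muscle and 0.11 in pancreas; on the knockout-in-Cy5 arrays to 0.039 in muscle and 0.13 in pancreas; on the knockout-in-Cy3 arrays to -0.046 in brain, -0.063 in muscle and -0.047 in pancreas. The sign thereby changed in brain and muscle with the Cy3 arrays turned, in muscle on the knockout-in-Cy5 arrays and in pancreas on the knockout-in-Cy3 arrays. In muscle it was -0.017 with arrays centred, -0.020 with arrays also scaled and -0.042 to -0.023 without each animal in turn, and in pancreas 0.0011 with the probe of most values. Over all alternatives the count of members at an unadjusted p under 0.05 ran from 3 to 14 in kidney, 0 to 9 in brain, 1 to 27 in pancreas and 1 to 19 in muscle, each highest with the Cy3 arrays turned. Averaging arrays within each probe first was added after seeing the data and changed no call.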
